A study of Mus musculus with 4 samples.

Results

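Gm42418, AY036118 and Lars2 are 3 of the 32285 genes counted in single-cell RNA libraries of crypts from the small intestine of mice, the pockets of the epithelium where stem and Paneth cells sit. They were chosen by name, as loci whose share of a cell's transcripts differs with cell class, with mitochondrial share and with the depth of the cell, so those 3 patterns are described below without a test. Lars2 encodes the mitochondrial leucyl-tRNA synthetase, which loads leucine onto mitochondrial tRNA. Gm42418 and AY036118 are annotated as long noncoding RNAs and lie in ribosomal RNA sequence.

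The libraries fall into 2 groups of 2, labelled 0D and 2D. Wherever 4 values follow each other, they belong to 0D-1, then 0D-2, then 2D-1, then 2D-2. The series design says that gut epithelial cells of mice were taken before and after sleep deprivation, so 0D is read here as before and 2D as after, although no label explains the letter D. Crypts had been released from the tissue with EDTA and strained, and no strain, age, sex or number of animals is given in the sources used here. No source ties the libraries to different animals, so a p-value here reflects library-to-library spread alone, and that spread may be technical.

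Ribosomal RNA is the main RNA of a cell. RNA polymerase I makes it in the nucleolus as one long precursor, which is cut into the mature rRNAs and built into ribosomes with ribosomal proteins. Mature rRNA has no poly(A) tail, so a method that captures transcripts by their tails, as the 3′ kit used here does, is designed to leave it out. Loci annotated over rRNA sequence nevertheless appear among the counted genes of many mouse single-cell data sets.

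In the GENCODE M21 annotation (build GRCm38), Gm42418 (ENSMUSG00000098178) is a lincRNA of 1831 bases on the plus strand of chromosome 17, from 39846958 to 39848788. AY036118 (ENSMUSG00000105361) is a lincRNA of 923 bases on the minus strand, from 39847113 to 39848035. Both lie wholly inside CT010467.1, an annotated rRNA gene on the minus strand from 39846353 to 39848827, which was not among the counted genes. Gm26917, a neighbouring lincRNA from 39843013 to 39846341, was counted and serves as a related locus for comparison. Lars2 (ENSMUSG00000035202) lies elsewhere, on chromosome 9 from 123366927 to 123462666 on the plus strand, as a protein-coding gene with 9 annotated transcripts.

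The sequences below are from the GENCODE M21 transcripts and show why these loci are called ribosomal RNA-like and how AY036118 relates to Gm42418. The first line is the start of Gm42418 (transcript positions 1 to 240, chr17:39846958-39847197, plus strand), with a stretch that is shared by small-subunit rRNAs across life and the longest run of A in capitals. The second is the end of AY036118 (positions 839 to 923, chr17:39847113-39847197, minus strand), with the same run in capitals as it reads on the other strand.
Gm42418 start: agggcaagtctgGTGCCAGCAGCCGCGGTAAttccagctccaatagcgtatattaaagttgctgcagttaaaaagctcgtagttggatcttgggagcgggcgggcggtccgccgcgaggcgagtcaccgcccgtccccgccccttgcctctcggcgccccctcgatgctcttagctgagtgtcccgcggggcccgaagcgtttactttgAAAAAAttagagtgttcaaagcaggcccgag
AY036118 end: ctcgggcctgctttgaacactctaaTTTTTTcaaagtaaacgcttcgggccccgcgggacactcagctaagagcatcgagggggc
The third is a stretch further along Gm42418 (positions 1055 to 1151, chr17:39848012-39848108, plus strand), with another conserved small-subunit stretch in capitals.
Gm42418 second stretch: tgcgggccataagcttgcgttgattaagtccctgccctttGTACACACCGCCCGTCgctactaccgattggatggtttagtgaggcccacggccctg
The reverse complement of AY036118 matched positions 156 to 1078 of Gm42418 at all 923 of its bases, so every base of AY036118 is antisense to Gm42418. The 2 conserved motifs, GTGCCAGCAGCCGCGGTAA and GTACACACCGCCCGTC, do not overlap each other. Searched on both strands of 141767 annotated transcripts, each was found in 2 (0.00141%), Gm42418 in sense and CT010467.1 in antisense. Where the 2 loci overlap, reads can be assigned to one or the other only by strand, and rRNA stands in the genome in repeated copies. How the counting treated strand and reads with several matches is not given in the sources used here, so the split of UMIs between Gm42418 and AY036118 is uncertain.

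Lars2 shared no such sequence with the chromosome 17 loci, the only rRNA-like loci it was aligned to. None of its 9 transcripts gave a blastn hit to the chromosome 17 loci at an E-value of 0.001, and the longest run of identical bases was 13. Its introns were not searched apart from those kept in annotated transcripts. The longest A run was 6 bases in the first-listed Lars2 transcript and 11 in Lars2-203, a transcript that retains an intron; the stretch around it (positions 2338 to 2428 of Lars2-203, chr9:123374031-123374121, plus strand) is shown because runs of A inside a transcript are places where an oligo-dT primer can bind.
Lars2-203 retained intron: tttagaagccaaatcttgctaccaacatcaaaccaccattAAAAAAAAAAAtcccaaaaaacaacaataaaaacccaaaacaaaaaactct
Longest A runs were 6 bases in Gm42418 and 4 in AY036118, and where reads began or ended within any of these loci cannot be read from gene counts.

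After filtering, the 4 libraries held 7025 to 7988 cells with medians of 9247.5 to 13340.5 UMIs (unique molecular identifiers, which count captured molecules). The median mitochondrial share was 4.48%, 3.96%, 6.25% and 3.71%, so 2D-1 stood highest. The libraries shared 20 to 32 cell barcodes per pair. The 2D libraries differed from each other more than the 0D libraries did in the level of each of the 3 loci.

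Gm42418 was among the most counted features of every library and was lower in both 2D libraries. It was at 9541, 10057, 5157 and 3594 UMIs per 1000000 (CPM), or 0.954%, 1.01%, 0.516% and 0.359% of all UMIs. By number of UMIs it ranked 8, 6, 18 and 26 among all features, a rank that is not corrected for length. Both 0D libraries lay above both 2D libraries, with means of 9799 ± 365 and 4376 ± 1105 CPM (SD, n = 2), a 2.24-fold difference.

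AY036118 followed the same order of libraries at a smaller difference. It was at 285, 294, 208 and 166 CPM, with group means of 289 ± 6.43 and 187 ± 29.8 CPM (SD, n = 2), a 1.55-fold difference. Lars2 was at 317, 340, 267 and 189 CPM, with means of 329 ± 16.1 and 228 ± 55 CPM (SD, n = 2), a 1.44-fold difference. For all 3 loci 2D-2 was the lowest library. Gm26917, the neighbouring locus, overlapped between groups at 110, 112, 126 and 101 CPM.

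**Figure D1:**
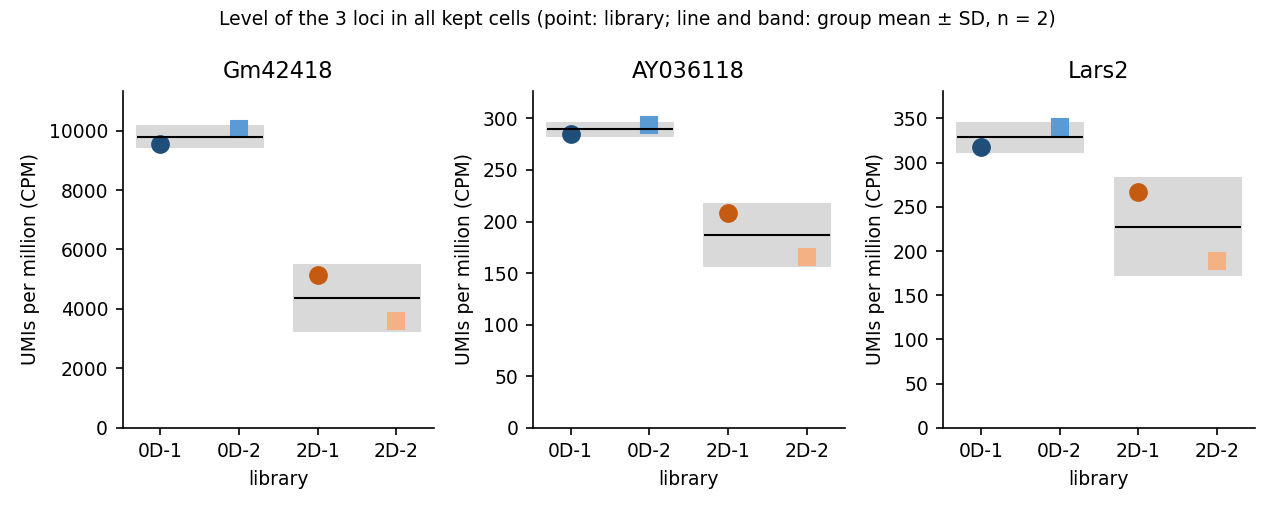
UMIs per 1000000 (y axis, from 0) of Gm42418, AY036118 and Lars2 in all kept cells of each library (x axis). Points are libraries, lines and grey bands are group means ± SD (n = 2). In each panel both 2D libraries sit below both 0D libraries, and 2D-2 is lowest (3594 CPM for Gm42418).

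Gm42418 UMIs were present in nearly every cell. At least 1 was counted in 100% of cells of 0D-1 and in 99.9% of those of 2D-2, where the share was lowest. The median cell held 120, 133, 53 and 26 Gm42418 UMIs, and the middle 80% of cells held 74 to 224, 78.1 to 235, 23 to 152 and 12 to 68. Cells in which Gm42418 made up 5% or more of all UMIs numbered 372, 453, 83 and 48, which is 4.90%, 6.35%, 1.18% and 0.601% of cells. The highest share in a single cell was 31.9%, 43.8%, 51.9% and 15.7%. AY036118 and Lars2 were sparse, with medians of 3, 4, 2 and 1 and of 4, 4, 3 and 1 UMIs per cell.

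In the summed libraries no gene passed edgeR's quasi-likelihood test over 15454 genes (0% called), so none of the 3 loci did. Gm42418 had a log2 change of -1.06 ± 0.18 (SE; adjusted p = 0.151), AY036118 of -0.52 ± 0.09 (SE; adjusted p = 0.151) and Lars2 of -0.43 ± 0.13 (SE; adjusted p = 0.193), each lower in 2 of 2 2D libraries. All 3 had an unadjusted p under 0.05 with a lower value in 2D, which 9.1% of all genes had. Their groups did not overlap, as in 27.5% of genes lower in 2D. With DESeq2, which called 703 of 22007 genes, Gm42418 (adjusted p = 1.77e-08) and AY036118 (adjusted p = 0.00185) passed. Without 2D-1 edgeR called 4045 genes, among them all 3 loci, and without 2D-2 it called 1915, among them Gm42418 and AY036118. These sums mix cell classes whose proportions differ between libraries, so the loci were next read within classes.

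Cells were placed in classes by scores of marker genes chosen for each class, such as Lgr5 and Olfm4 for stem cells, Lyz1 and Mmp7 for Paneth cells, Chga and Neurod1 for enteroendocrine cells and Dclk1 and Trpm5 for tuft cells. A class cut from such a score is a range of cells and not a type. It held 2189 stem-gated, 3584 dividing, 2576 enterocyte-gated, 2854 Paneth-gated, 6405 goblet-gated, 2278 enteroendocrine-gated and 1075 tuft-gated cells. Of these, 130, 265, 294, 137, 2011, 68 and 12 had a score within 0.25 above the gating score of 1. Another 254, 529, 369, 415, 1881, 65 and 35 cells had their highest score for the class, within 0.25 of the gating score on either side, and did not join it. The goblet class thus had the most cells near the gate, in the class and out of it. The 10 genes leading each class by fold held 3 to 8 of its own markers and 0 of any other class, and every other class had a median score of at most 0.0865 in it.

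The share of UMIs taken by Gm42418 was lowest in Paneth-gated cells in all 4 libraries, and highest in tuft-gated cells in 3. Paneth cells secrete antimicrobial peptides and are rich in RNA, while tuft cells are rare chemosensory cells. In Paneth-gated cells Gm42418 was at 3707, 4669, 2040 and 1689 CPM. In tuft-gated cells it was at 22962, 25461, 11267 and 6524 CPM. The highest class was 6.19, 5.45, 5.52 and 4.44 times the lowest in these libraries, with enterocyte-gated cells (7494 CPM) in first place in 2D-2.

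In the 0D pair the order of classes for Gm42418 ran from tuft-gated (24211 ± 1767 CPM, SD, n = 2) and hormone-making enteroendocrine-gated cells (22325 ± 920) over mucus-making goblet-gated (11373 ± 601), absorptive enterocyte-gated (10661 ± 443), stem-gated (9519 ± 261) and dividing cells (7875 ± 261) to Paneth-gated cells (4188 ± 680). Ranges overlapped between tuft- and enteroendocrine-gated and between goblet- and enterocyte-gated cells, and not between the other neighbours. In the 2D pair the order was tuft-gated (8895 ± 3354), enterocyte-gated (6907 ± 830), enteroendocrine-gated (5398 ± 649), stem-gated (5065 ± 387), goblet-gated (4880 ± 2478), dividing (4474 ± 465) and Paneth-gated (1864 ± 249). There the only neighbours whose ranges did not overlap were enterocyte- over enteroendocrine-gated and dividing over Paneth-gated cells. Enteroendocrine-gated cells thus stood in second place in both 0D libraries and in places 4 and 3 in 2D-1 and 2D-2.

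AY036118 and Lars2 had the same classes at both ends in all 4 libraries. AY036118 was at 789, 771, 704 and 396 CPM in tuft-gated cells and at 55.3, 72.3, 51.0 and 50.4 CPM in Paneth-gated cells, a 14.3-, 10.7-, 13.8- and 7.84-fold range. Lars2 was at 818, 764, 697 and 373 CPM in tuft-gated and at 200, 251, 122 and 125 CPM in Paneth-gated cells, a 4.08-, 3.04-, 5.71- and 2.98-fold range. Enteroendocrine-gated cells came second for both loci in every library but 2D-2, with 693, 682 and 316 CPM of AY036118 and 664, 720 and 353 CPM of Lars2. The remaining classes lay between 143 and 344 CPM for AY036118 and between 160 and 387 CPM for Lars2.

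These shares ran against the depth of the classes. Paneth-gated cells had a median of 22521 UMIs, tuft-gated cells of 2926 and enteroendocrine-gated cells of 5492.5, against 11533 in all cells. Over the 7 classes of a library, Spearman's rho between the CPM of Gm42418 and the class's median UMIs was -0.96, -0.89, -0.82 and -0.50. It was -1.0, -0.96, -0.89 and -0.64 for AY036118 and -0.89, -0.89, -0.96 and -0.64 for Lars2. These are descriptions over 7 points that share a library and a depth that enters both axes. At 10 to 20% mitochondrial UMIs, Gm42418 was higher in Paneth- than in tuft-gated cells of 0D-2, 2D-1 and 2D-2. In CPM of non-mitochondrial UMIs it was at 49072 against 45607, 19159 against 16392 and 14995 against 13404. At 5 to 10% Paneth-gated cells were lower in 0D-1, 2D-1 and 2D-2, and at 2.5 to 5% in both 0D libraries. The part of mitochondrial share in the class order was not tested.

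In the 0D libraries the number of Gm42418 UMIs per cell was far more even than the share. In 0D-1 the class means ran from 123 in tuft-gated to 180 in enterocyte-gated cells, a 1.46-fold range, and in 0D-2 from 136 in goblet-gated to 206 in enterocyte-gated cells, a 1.51-fold range. A Paneth-gated cell of 0D-1 held 133 Gm42418 UMIs on average and a tuft-gated cell 123, although their median depths were 34061 and 3076.5 UMIs. In 2D-1 and 2D-2 the means ran from 41.2 and 24.6 in enteroendocrine-gated to 128 and 110 in enterocyte-gated cells, so the range was 3.11- and 4.45-fold. The share ranged 5.52- and 4.44-fold in these libraries, so UMIs per cell were no more even than the share in 2D-2. Enterocyte-gated cells had the most Gm42418 UMIs per cell in all 4 libraries. Paneth-gated cells held the fewest AY036118 UMIs per cell in all 4 (1.98, 2.39, 1.62 and 1.11), and the most Lars2 UMIs per cell in the 0D libraries (7.19 and 8.30).

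**Figure D2:**
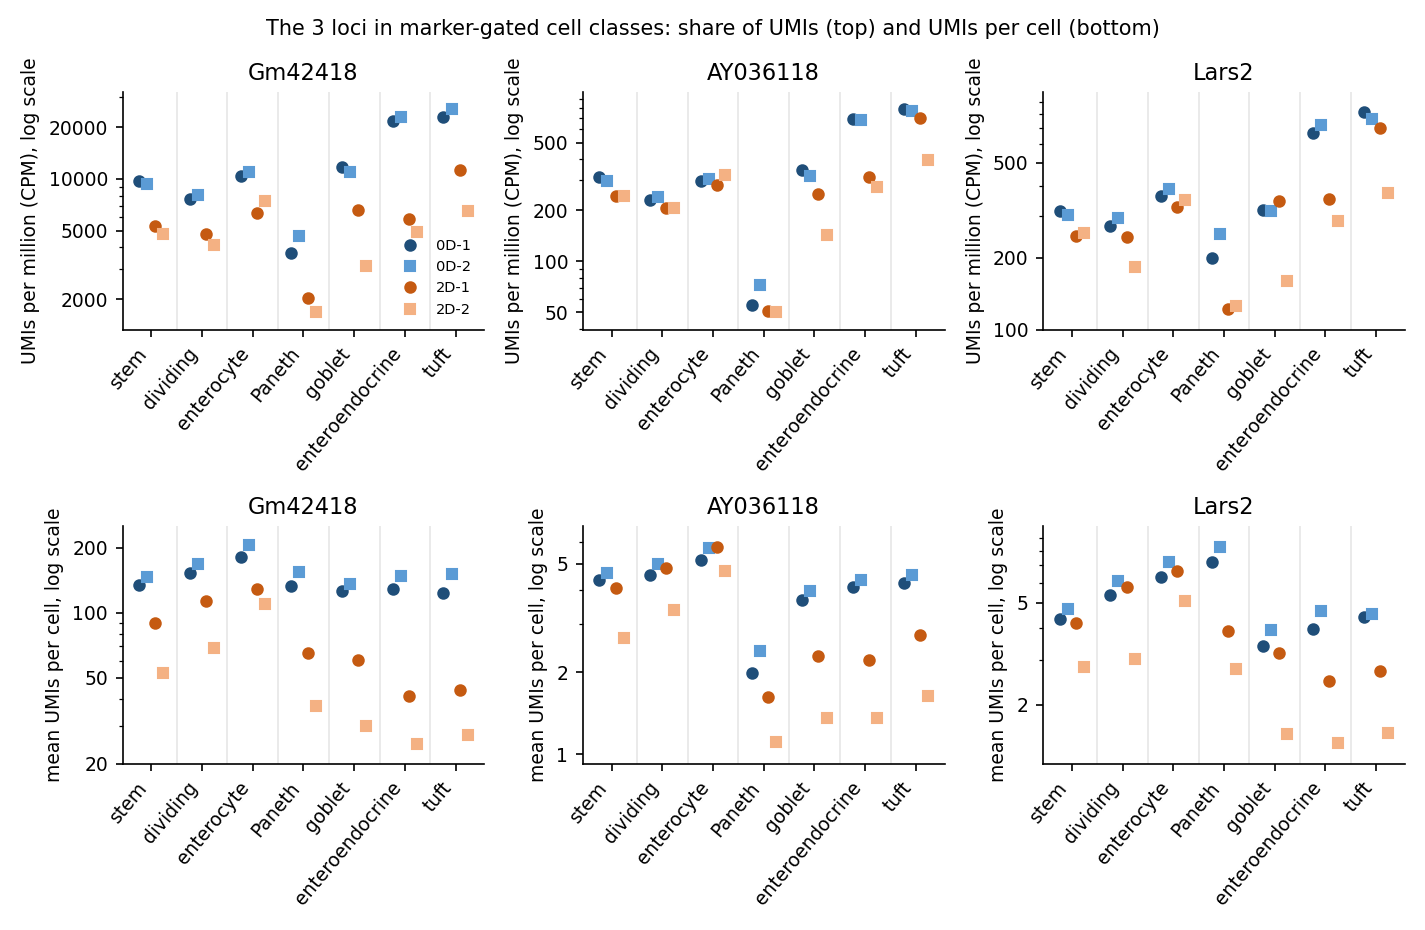
Share of UMIs (top, CPM, log scale) and mean UMIs per cell (bottom, log scale) of the 3 loci in 7 marker-gated classes (x axis); each point is 1 library. Paneth-gated cells are lowest in share for each locus. UMIs per cell of Gm42418 stay between 123 and 180 in 0D-1 and run from 24.6 to 110 in 2D-2.

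Among cells of 10000 to 20000 UMIs the classes lay closer together in Gm42418. There the highest of 6 classes was 1.47, 1.61, 1.79 and 3.64 times the lowest for Gm42418 (tuft-gated cells were left out, with 13 in 2D-1). The folds over all depths include tuft-gated cells, so part of the difference lies in the classes compared. For Lars2 in 2D-2 the fold was 2.85 here and 2.98 over 7 classes of all depths. In 0D-1 these levels ran from 8945 CPM in dividing to 13137 CPM in enterocyte-gated cells. Gm42418 and Lars2 did not keep their class order at this depth. The lowest class of Gm42418 was dividing cells in 0D-1 and goblet-gated cells in 0D-2, 2D-1 and 2D-2. Paneth-gated cells, its lowest class over all depths, were at 10826, 11192, 4794 and 2598 CPM. The highest class of Lars2 was Paneth-gated cells in 0D-1 (505 CPM) and 0D-2 (532 CPM), enteroendocrine-gated cells in 2D-1 (313 CPM) and enterocyte-gated cells in 2D-2 (309 CPM). Goblet-gated cells were the lowest class of Lars2 in every library. For AY036118 Paneth-gated cells stayed lowest in every library, at 176, 231, 108 and 87.3 CPM.

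Bins of depth showed the same pattern over all kept cells, although they mix classes and mitochondrial shares and depth enters the share itself. In cells of 500 to 2000 UMIs Gm42418 made up 81195, 81034, 27293 and 16188 CPM, and in cells of 20000 to 40000 UMIs 6330, 7212, 4609 and 3087 CPM. The shallow cells were thus 12.8-, 11.2-, 5.92- and 5.24-fold higher in share. In UMIs per cell the order was the opposite, with 116, 111, 39.3 and 22.5 Gm42418 UMIs in the shallow and 171, 188, 123 and 85.5 in the deep cells. Mean depth was 18.9-, 19.0-, 18.5- and 19.9-fold higher in the deep cells, and Gm42418 UMIs per cell were 1.47-, 1.69-, 3.13- and 3.80-fold higher.

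AY036118 and Lars2 behaved alike in this respect. The share of AY036118 was 16.7-, 14.1-, 7.27- and 7.22-fold and that of Lars2 13.0-, 9.28-, 8.86- and 8.69-fold higher in the shallow than in the deep cells. AY036118 UMIs per cell were 1.14-, 1.35-, 2.55- and 2.76-fold and Lars2 UMIs per cell 1.46-, 2.05-, 2.09- and 2.29-fold higher in the deep cells. Over 2450 genes with a mean of at least 50 CPM, the mean log2 ratio of shallow to deep cells was 3.39 for AY036118 (rank 8), 3.29 for Lars2 (rank 10) and 3.03 for Gm42418 (rank 12), against a median of -0.22. Gm26917 had rank 3 and Malat1, an abundant RNA that stays in the nucleus, rank 7.

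**Figure D3:**
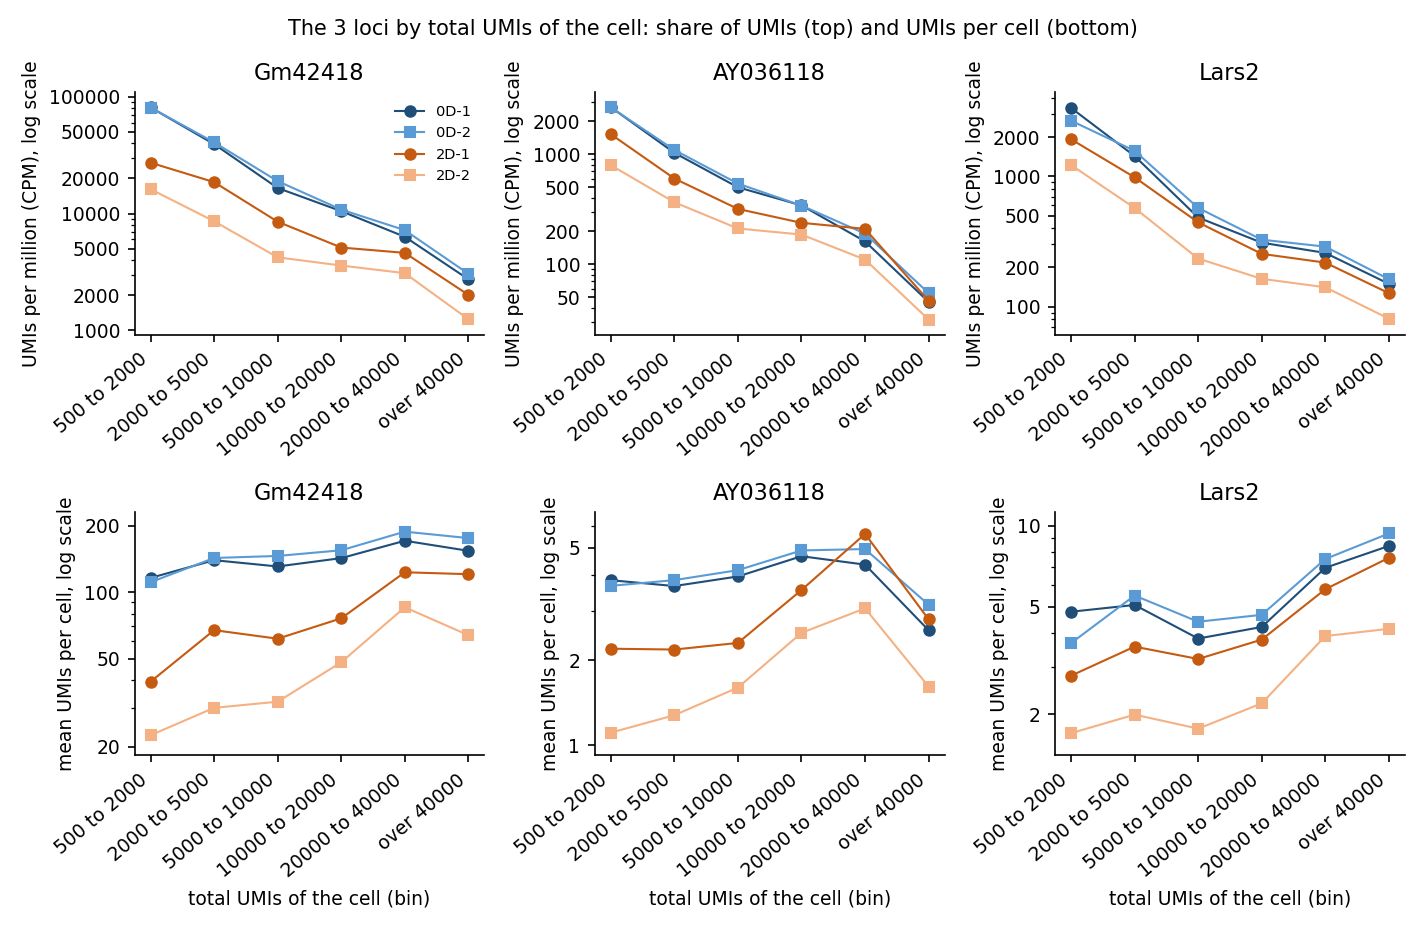
Share of UMIs (top, CPM, log scale) and mean UMIs per cell (bottom, log scale) of the 3 loci in bins of total UMIs of the cell (x axis); each line is 1 library. Shares fall steeply with depth, while Gm42418 UMIs per cell rise from 116 at 500 to 2000 UMIs to 171 at 20000 to 40000 UMIs in 0D-1.

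Barcodes that were left out for fewer than 500 genes also carried these UMIs. They held on average 55.6, 58.0, 16.2 and 18.5 Gm42418 UMIs. Droplets without a cell were not among the barcodes used here, all of which had at least 500 UMIs, so the part that free RNA has in any of these counts was not tested. The ratios between the loci were not the same in every class. In 0D-1 there were 1.49 AY036118 UMIs per 100 Gm42418 UMIs in Paneth-gated and 3.44 in tuft-gated cells, and 2.68 Lars2 UMIs in goblet-gated and 5.41 in Paneth-gated cells. In 2D-1 the first ratio ran from 2.5 in Paneth-gated to 6.25 in tuft-gated cells.

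Over all kept cells the ratios differed between the groups. There were 2.99, 2.92, 4.04 and 4.62 AY036118 UMIs and 3.33, 3.38, 5.17 and 5.25 Lars2 UMIs per 100 Gm42418 UMIs. Both 2D libraries lay above both 0D libraries in each ratio, and the Lars2 ratio differed by less within a pair (SD 0.0392 and 0.0603) than between the pairs.

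The loci also took a larger share in cells with a larger mitochondrial share, counted here per 1000000 UMIs that are not mitochondrial. A high mitochondrial share is often read as a sign of damaged cells. In cells with 2.5 to 5% mitochondrial UMIs Gm42418 was at 9811, 9708, 4884 and 3602, and in cells with 10 to 20% at 19644, 22591, 13257 and 11145. In cells with over 40%, which the filter on kept cells removes, it was at 144923, 132084, 56393 and 53836. At 10 to 20% it was 2.00-, 2.33-, 2.71- and 3.09-fold and at over 40% 14.8-, 13.6-, 11.5- and 14.9-fold the level at 2.5 to 5%.

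Lars2 differed the most of the 3 between these bins. It was at 280, 289, 222 and 163 per 1000000 non-mitochondrial UMIs at 2.5 to 5%, and at 8422, 7563, 3806 and 3812 at over 40% mitochondrial UMIs, which is 30.1, 26.2, 17.1 and 23.4 times as high. AY036118 was 9.24, 8.24, 6.0 and 9.18 times as high over the same bins. Over 2438 genes, Lars2 ranked 2, Gm42418 4 and AY036118 6 by their mean ratio at over 40%, behind Gm26917 at rank 1. At 10 to 20% the ranks were 4, 13 and 43.

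Depth moved with mitochondrial share, from medians of 10507 to 16594 UMIs at 2.5 to 5% to medians of 2336 to 3699 UMIs at over 40%. Among cells of 5000 to 20000 UMIs the increase was still there. Gm42418 was at 11045, 10951, 4703 and 3295 at 2.5 to 5% and at 22609, 26135, 12651 and 10753 at 10 to 20%. Lars2 was at 288, 304, 220 and 150 at 2.5 to 5% and at 951, 997, 691 and 620 at 10 to 20%.

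**Figure D4:**
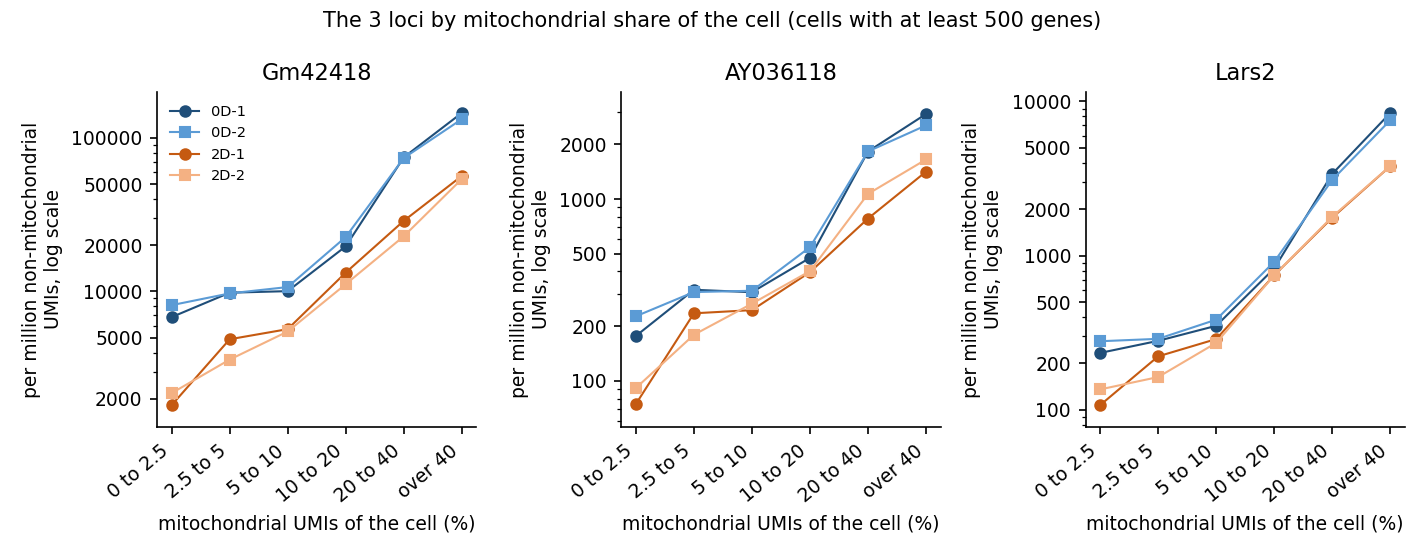
Level of the 3 loci per 1000000 non-mitochondrial UMIs (y axis, log scale) in bins of mitochondrial share of the cell (x axis, percent), over all barcodes with at least 500 genes; each line is 1 library. Every line is higher at over 40% than at 2.5 to 5%, with 144923 against 9811 for Gm42418 in 0D-1, and both 2D lines stay below both 0D lines in every bin.

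The difference between 0D and 2D was present at each mitochondrial share. Both 2D libraries lay below both 0D libraries in 6 of 6 mitochondrial bins for each locus, with 0D over 2D ratios of 1.73 to 3.74 for Gm42418, 1.21 to 2.43 for AY036118 and 1.17 to 2.11 for Lars2. The same held in 6 of 6 depth bins for Gm42418 (1.76 to 3.73) and Lars2 (1.5 to 1.93), and in 4 of 6 for AY036118 (1.1 to 2.31). These bins split the same 4 libraries. On edgeR's scaled values 27.5% of genes were lower in both 2D libraries over all kept cells. At 10000 to 20000 UMIs 3505 of 13774 genes were, and at 2.5 to 5% mitochondrial UMIs 2685 of 14018. For the other bins that share was not counted. With mitochondrial share held at 2.5 to 5% within depth bins, the difference of the loci depended on depth. Gm42418 was at 9746, 9788, 4231 and 3110 CPM at 10000 to 20000 UMIs, a 2.66-fold difference. At over 40000 UMIs it was at 3222, 3286, 3315 and 3202 CPM, with group means of 3254 ± 45.2 and 3259 ± 79.4 CPM (SD, n = 2). Lars2 there was at 163, 166, 169 and 167 CPM. These deepest cells numbered 66, 53, 61 and 36. Without the narrowing, Gm42418 at over 40000 UMIs had 0D and 2D means of 2263 and 888 CPM in Paneth-gated cells. In dividing cells of that depth the means were 3871 and 2914 CPM. Enterocyte-gated cells of that depth went the other way in 2D-1, at 3552 and 4215 CPM in 0D-1 and 0D-2 and 5926 CPM in 2D-1. In 2D-2 that class held 16 such cells, too few for a level. Median mitochondrial share in those Paneth-gated cells was 0.558%, 0.510%, 0.607% and 0.455%, so most lie outside the narrowed range. The part of the class mix was not tested.

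All 3 loci fell in enteroendocrine-gated cells, where each had its largest log2 change of the 7 classes. These cells release gut hormones and were led by Ghrl, Cck, Chga and Chgb. Gm42418 was at 21675, 22976, 5857 and 4939 CPM, so both 2D libraries lay far below both 0D libraries. Its log2 change was -2.06 ± 0.14 (SE; adjusted p = 3.24e-05 in edgeR), a 4.16-fold decrease and the smallest p of the 11461 genes tested in this class. In UMIs per cell the fall was from 129 and 148 to 41.2 and 24.6.

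AY036118 was at 693, 682, 316 and 273 CPM in the same cells (log2 -1.23 ± 0.09 SE, adjusted p = 4.37e-05), and Lars2 at 664, 720, 353 and 285 CPM (log2 -1.13 ± 0.11 SE, adjusted p = 0.000255). By p they ranked 5 and 9. In this class 0.096% of genes passed as lower in 2D, 11 in all, and 3 of those 11 were these loci. Gm26917 did not pass, at 204, 228, 243 and 197 CPM (log2 0.02 ± 0.11 SE). Median depth in the class was 5463.5, 5945, 6446 and 4676 UMIs and the median mitochondrial share 2.37%, 2.52%, 3.06% and 2.37%, both overlapping between groups.

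All 3 calls in enteroendocrine-gated cells held with each library left out in turn. In each of 4 depth bins with at least 20 cells per library both 2D libraries were lower, 2.92- to 4.52-fold for Gm42418, 2.20- to 2.57-fold for AY036118 and 1.68- to 2.33-fold for Lars2. These bins split the same 4 libraries. On edgeR's scaled values 19.4% of all genes were lower in both 2D libraries in the whole class. At 10000 to 20000 UMIs 848 of 5870 genes were, and for the other bins the share was not counted. Tested among cells of 10000 to 20000 UMIs alone, with 23, 27, 83 and 28 cells and 5870 genes, Gm42418 did not pass edgeR (log2 -1.61 ± 0.42 SE, adjusted p = 0.798), nor did AY036118 (-1.19) or Lars2 (-0.81). Summed Paneth markers were higher in the 2D enteroendocrine-gated cells, at 4902, 4525, 11507 and 9441 CPM, with 10 of 10 markers above both 0D libraries and none at 0. On edgeR's scaled values 19% of all genes in this class were higher in both 2D libraries. Summed Paneth markers were also higher in both 2D libraries in classes where no locus passed. They were at 3065, 7357, 16325 and 15448 CPM in tuft-gated and at 1630, 1878, 4317 and 6272 CPM in enterocyte-gated cells. In dividing cells they were at 2479, 3232, 4655 and 6341 CPM and in goblet-gated cells at 8662, 9017, 11124 and 11591 CPM. Paneth-gated cells themselves showed no such rise. The part of these markers in the fall of the loci was not tested. Of the marker lists for cells outside the epithelium, red cell markers were at 0 (5 of 5), as were 6 of 7 stromal markers, while the remaining one, Vim, was at 889, 877, 842 and 783 CPM. Immune markers summed to at most 4.9 CPM.

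In stem-gated cells Gm42418 fell and the other loci did not pass. It was at 9704, 9335, 5338 and 4791 CPM, a log2 change of -0.95 ± 0.10 (SE; adjusted p = 0.0158 in edgeR), in a class where 0.104% of 11490 genes passed as lower in 2D. AY036118 was at 315, 297, 242 and 243 CPM (log2 -0.37 ± 0.08 SE, adjusted p = 0.130) and Lars2 at 313, 303, 246 and 255 CPM (log2 -0.34 ± 0.08 SE, adjusted p = 0.151). Without 0D-1 the adjusted p of Gm42418 was 0.173 and without 0D-2 0.130, while the log2 change stayed between -0.92 and -0.99. With replicate number as a block it did not pass either (log2 -0.95, adjusted p = 0.0589). Goblet markers in these cells summed to 4723, 4453, 5782 and 8858 CPM and Paneth markers to 6206, 6477, 6677 and 11917 CPM, with 6 of 8 and 6 of 10 markers higher in both 2D libraries and none at 0, against 22.4% of all genes on edgeR's scaled values. Their part in the result was not tested.

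The other classes had lower Gm42418 in 2D without passing. The log2 change was -0.81 ± 0.09 in dividing, -0.62 ± 0.13 in enterocyte-gated, -1.33 ± 0.24 in Paneth-gated, -1.40 ± 0.41 in goblet-gated and -1.47 ± 0.36 in tuft-gated cells (SE; edgeR adjusted p from 0.110 to 0.563). Goblet-gated cells showed the widest 2D pair, with 11798, 10948, 6632 and 3128 CPM. In 2D-1 these cells had a median mitochondrial share of 8.10%, against 3.35% to 3.81% in the other libraries.

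For AY036118 the changes in the other classes were -0.20 ± 0.07 in dividing, 0.01 ± 0.10 in enterocyte-gated, -0.48 ± 0.17 in Paneth-gated, -0.91 ± 0.23 in goblet-gated and -0.54 ± 0.25 in tuft-gated cells (log2, SE). Enterocyte-gated cells were the class in which it overlapped between groups, at 296, 306, 283 and 322 CPM. For Lars2 they were -0.39 ± 0.13, -0.15 ± 0.09, -1.02 ± 0.18, -0.49 ± 0.28 and -0.59 ± 0.26 in the same order. Lars2 in goblet-gated cells was at 316, 314, 347 and 160 CPM, so before edgeR's scaling 2D-1 lay above both 0D libraries.

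Counted over the 7 classes, Gm42418 passed over all genes in 2, AY036118 in 1 and Lars2 in 1. An unadjusted p under 0.05 was reached in 7, 6 and 5 classes. The share of all genes that reached it with a lower value in 2D was 6.02% in stem-gated, 4.86% in dividing, 5.64% in enterocyte-gated, 3.2% in Paneth-gated, 4.33% in goblet-gated, 3.85% in enteroendocrine-gated and 3.47% in tuft-gated cells. On edgeR's scaled values both 2D libraries lay below both 0D libraries in 7, 6 and 7 classes, which in the same order 22.4%, 22.1%, 22.6%, 18.3%, 23.4%, 19.4% and 20.1% of all genes did. In the 5 classes where no locus passed, the share of all genes that passed in either direction was 0.272% in enterocyte-gated, 0.2% in tuft-gated and 0.018% in Paneth-gated cells, and 0% in dividing and goblet-gated cells. As lower in 2D, 0.0263% passed in enterocyte-gated and 0.0778% in tuft-gated cells.

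**Figure D5:**
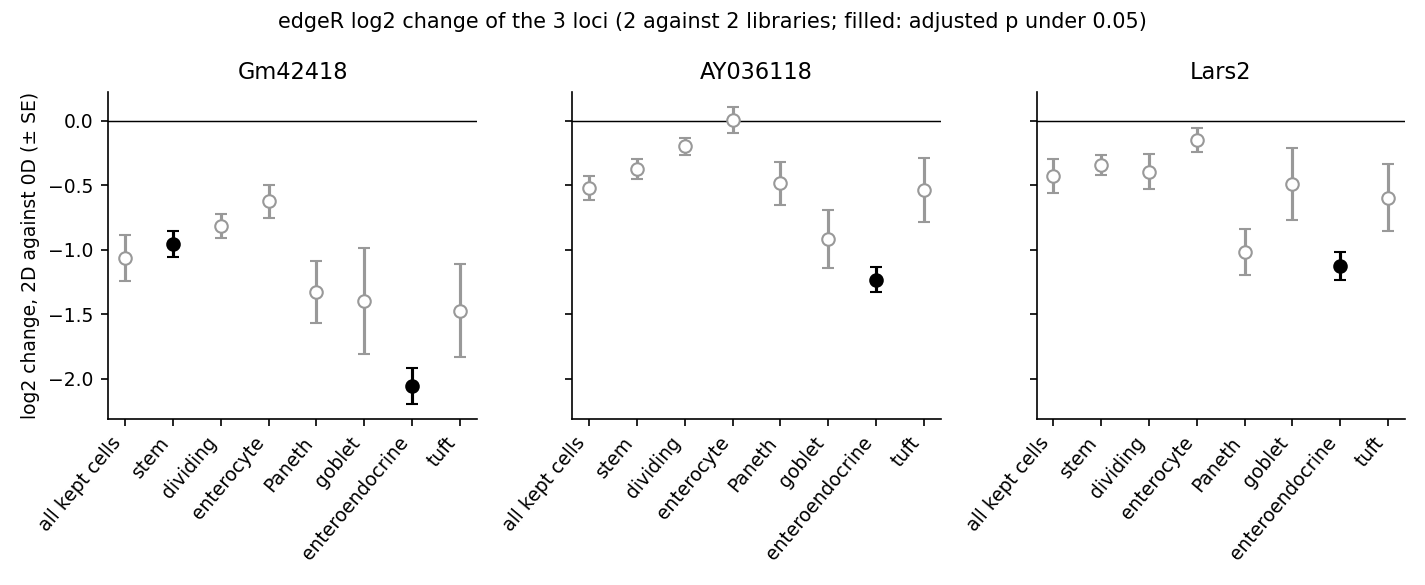
Log2 change of each locus, 2D against 0D (y axis, ± SE), in all kept cells and in 7 marker-gated classes (x axis), from edgeR on sums of 2 against 2 libraries. Filled points passed over all genes tested (adjusted p under 0.05); the lowest is Gm42418 in enteroendocrine-gated cells at -2.06.

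Whether the change differed between the classes was tested across all genes with class-by-group terms and library as a block, a test chosen after seeing the data. Gm42418 (edgeR adjusted p = 0.0127) and AY036118 (adjusted p = 0.0110) passed, Lars2 did not (adjusted p = 0.200), and 0.562% of 14756 genes passed in all. Without 0D-1 the adjusted p was 0.741 for Gm42418 and 1 for AY036118, and without 0D-2 0.849 and 0.866. Over 26 combinations of class and depth bin with at least 20 cells in every library, Gm42418 was lower in both 2D libraries in 25, AY036118 in 20 and Lars2 in 20. These combinations reuse the same 4 libraries. In whole classes 18.3% to 23.4% of all genes were lower in both 2D libraries on edgeR's scaled values. That share was not counted for every combination. The exception for Gm42418 was in stem-gated cells of 20000 to 40000 UMIs, at 5404, 6300, 4588 and 5574 CPM.

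Across the 28 combinations of class and library, the gene most like Gm42418 among 2714 genes of at least 50 CPM was Lars2 (Pearson's r of log2 CPM 0.93), followed by AY036118 (0.89), Cox17 (0.81), Srsf5 (0.78) and Rsrp1 (0.77). The genes most like Lars2 were Gm42418 (0.93), AY036118 (0.90), Myo7b (0.80), Ankrd12 (0.79) and Sort1 (0.79). AY036118 was most like Tsc22d4 (0.94), Eif4a2 (0.93), Ptprf (0.93), Romo1 (0.93) and Cop1 (0.93), with Lars2 in place 44 and Gm42418 in place 85. Gm26917 came in place 893 for Gm42418 (0.54). These points share libraries, depth and classes, and the values are descriptions.

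Genes of the pathways around these loci were read in the same fits. Of the 16 other mitochondrial aminoacyl-tRNA synthetases, 11 were below 0 in all cells and none passed (median log2 change -0.16, against 0.01 over all genes). Those with the smallest p were Rars2 (24.8, 24.6, 20.2 and 17.4 CPM) and Sars2 (8.13, 7.99, 5.71 and 5.77 CPM), the arginine and serine enzymes. Lars, the cytosolic leucyl-tRNA synthetase, was at 56.8, 58.7, 54.9 and 58.2 CPM (log2 change 0.09). In enteroendocrine-gated cells, where Lars2 fell, 7 of 15 tested mitochondrial synthetases were below 0, none passed and the median was 0.00.

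Of the 20 genes of the RNA polymerase I machinery, 15 were below 0 in all cells (median -0.09) and none passed. Polr1d, a subunit shared by polymerases I and III, was at 273, 273, 216 and 193 CPM. Nucleolar rRNA processing genes had 14 of 20 below 0 (median -0.07, none passing), with the nucleolar protein gene Npm1 at 943, 847, 701 and 604 CPM. In enteroendocrine-gated cells these lists had 8 of 20 and 10 of 20 below 0 and medians of 0.03 each. Cytosolic ribosomal protein genes had 81 of 81 below 0 in all cells (median -0.21, none passing), with Rpl7a at 1314, 1261, 976 and 915 CPM, and 66 of 81 in enteroendocrine-gated cells (median -0.06).

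From a list of RNAs kept in the nucleus 7 were tested, of which 4 were above 0 in all cells (median 0.16, none passing). Among them Neat1, the scaffold RNA of nuclear paraspeckles, was at 660, 700, 1037 and 1167 CPM. Mitochondrially encoded genes had 8 of 13 below 0 in all cells (median -0.07). In stem-gated cells 13 of 13 were below 0 (median -0.24) and 2 fell, the ATP synthase gene mt-Atp8 (187, 209, 118 and 95.8 CPM, adjusted p = 0.0158 in edgeR) and the complex I gene mt-Nd4l (406, 423, 303 and 272 CPM, adjusted p = 0.0393). Gm26917 passed in none of the 7 classes, and in tuft-gated cells it was at 1153, 1117, 3356 and 1028 CPM, high in 2D-1 alone.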

How the data were processed

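Each of the 4 libraries has a matrix of raw UMI counts per gene and cell barcode, deposited by the authors. The submitters' processing notes name Cell Ranger 2.1.1 and the build mm10, but cellranger 7.0.0 stands as the writing software per the file headers. The annotation and the handling of intronic reads (not given in the sources used here) would each bear on the counts of Lars2. All deposited barcodes had at least 500 UMIs.

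The filter kept cells of 500 or more genes whose mitochondrial share did not exceed 20%. In the library order of the results these were 7586, 7132, 7025 and 7988 cells, holding 113758758, 110817632, 110587001 and 93090534 UMIs. Of the rest, 879, 891, 1322 and 580 were over 20% and 1096, 1340, 1356 and 1456 had fewer genes. No doublet caller was run. Class scores are means over markers of log values (UMIs per 10000, plus 1), scaled by gene and standardised over cells. A cell joined the class with its highest score if that was at least 1 and at least 0.5 above the next.

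Raw UMIs were summed per library, and per library and class, and tested with edgeR 4.0.16 in R 4.3.3 (quasi-likelihood, filterByExpr, TMM, Benjamini-Hochberg, threshold 0.05, no block), with DESeq2 1.42.0 as an alternative. The fits were checked on simulated counts. CPM are UMIs per 1000000 of the summed total. Sequences were matched with blastn 2.17.0, and 32158 of 32285 gene IDs were found in GENCODE M21. The loci, markers and gene lists were chosen with earlier results of these data known. Genes named besides the loci are list members that passed, else up to 2 of the smallest p in all cells, and the 5 genes most like each locus. Malat1, the ribosomal protein list, the enteroendocrine leading genes and the marker sums were added after values were seen. Groups hold 2 libraries, and UMI counts are subject to counting error as well.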

Additional observations from a re-analysis of the deposited data

Results flagged for a closer look

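The change of Gm42418 between 2D and 0D differed between the 7 marker-gated classes by a test of class-by-group terms chosen after seeing the data (edgeR adjusted p = 0.0127). It ran from a log2 change of -0.62 in enterocyte-gated to -2.06 in enteroendocrine-gated cells, and Gm42418 was lower in 2D in all 7. The change of AY036118 differed between the classes as well (edgeR adjusted p = 0.0110), from 0.01 in enterocyte-gated to -1.23 in enteroendocrine-gated cells. Both calls were lost without 0D-1 (adjusted p = 0.741 and 1) and without 0D-2 (0.849 and 0.866).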

How the results depend on the processing

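Over 24 changes of a locus in a class or in all cells and 351 alternative values, 340 lay below 0, and Gm42418 was below 0 in 117 of 117. These alternatives refit the same libraries, so their direction is not independent of the main fits. The share of all genes that kept their direction was not counted. Levels by class, depth and mitochondrial share moved by less than 1 SD in every alternative run.

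With DESeq2 these changes passed besides: in all cells Gm42418 (-1.07) and AY036118 (-0.53), in stem-gated cells AY036118 (-0.37), Gm42418 in dividing (-0.81), enterocyte-gated (-0.63), Paneth-gated (-1.31), goblet-gated (-1.40) and tuft-gated cells (-1.47), Lars2 in Paneth-gated (-1.01) and AY036118 in goblet-gated cells (-0.91). With no filter on low counts these passed: Lars2 (-0.35) and AY036118 (-0.38) in stem-gated, Lars2 (-1.0) and Gm42418 (-1.31) in Paneth-gated, Gm42418 (-1.42) and AY036118 (-0.94) in goblet-gated and Gm42418 in tuft-gated cells (-1.47), and the difference between classes for Lars2 (adjusted p = 0.000176). Among cells of 10000 to 20000 UMIs, a setting chosen after seeing the data, Gm42418 in enterocyte-gated (-0.93) and Lars2 (-0.88), Gm42418 (-1.38) and AY036118 (-0.84) in Paneth-gated cells passed, while in enteroendocrine-gated cells Gm42418 (-1.61), AY036118 (-1.19) and Lars2 (-0.81) did not, over fewer genes and cells. At 2.5 to 5% mitochondrial UMIs, also chosen afterwards, Gm42418 passed in goblet-gated cells (-1.98). Tuft-gated cells could not be fitted in either setting. Without cells whose second class score was 1 or more, Lars2 (-0.45) and AY036118 (-0.51) passed in stem-gated cells. AY036118 in enterocyte-gated cells, at 0.01, turned to -0.0054 with no filter, -0.30 at 10000 to 20000 UMIs, -0.023 without those cells and -0.11 without 2D-2. The causes were not tested. Over all genes, DESeq2 called 703 of 22007 in all cells and 64 of 17494 in stem-gated cells. With no filter 513 of 17494 passed in stem-gated cells, and 507 of 21366 for the difference between classes. Without cells of a second score 73 of 10821 passed in stem-gated cells. Such counts are not given here for the other classes with added calls, so those calls stand without a share of all genes.

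With all deposited barcodes there were 2.88 AY036118 UMIs (0D) and 3.61 (0D) and 5.50 (2D) Lars2 UMIs per 100 Gm42418 UMIs.

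Same-numbered libraries were not shown to be paired (correlation of deviations from -0.094 in tuft-gated to 0.17 in Paneth-gated cells). With replicate number as a block Gm42418 in stem-gated cells did not pass (-0.95, adjusted p = 0.0589), Lars2 (-1.01) and Gm42418 (-1.31) in Paneth-gated cells did, and it changed no other call of the loci. The block called 33 of 11490 genes in stem-gated and 52 of 11461 in enteroendocrine-gated cells. Its count in Paneth-gated cells is not given here, so the calls in that class stand without a share of all genes.

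With 1 library left out, the lone library is assumed to vary like the other group. In all cells Gm42418 ranged from -1.24 to -0.91, AY036118 from -0.60 to -0.46 and Lars2 from -0.59 to -0.28. In stem-gated cells the ranges were -1.02 to -0.89, -0.42 to -0.32 and -0.38 to -0.30 in the same order. Gm42418 ranged from -0.90 to -0.73 in dividing, -0.77 to -0.49 in enterocyte-gated, -1.51 to -1.12 in Paneth-gated, -1.86 to -1.04 in goblet-gated and -1.90 to -1.13 in tuft-gated cells. AY036118 ranged from -0.69 to -0.24 in Paneth-gated (-0.24 without 0D-2), -0.11 to 0.12 in enterocyte-gated, -1.21 to -0.66 in goblet-gated and -0.99 to -0.17 in tuft-gated cells. Lars2 ranged from -0.60 (without 2D-1) to -0.21 (without 2D-2) in dividing, -0.21 to -0.088 (without 2D-1) in enterocyte-gated, -1.20 to -0.81 in Paneth-gated, -0.97 to -0.12 in goblet-gated and -1.10 to -0.21 in tuft-gated cells. Adjusted p of the difference between classes ranged from 6.06e-11 to 0.849 for Gm42418, 2.27e-07 to 1 for AY036118 and 1.39e-05 to 1 for Lars2.

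Counts of genes called moved with the setting. In all cells there were 0, with 7 at 10000 to 20000 UMIs, 703 with DESeq2, 4045 without 2D-1 and 1915 without 2D-2. In stem-gated cells 21 became 64 with DESeq2, 513 with no filter, 73 without cells of a second score, 11 at a class score of 1.5, 7 at 10000 to 20000 UMIs, 11 at 2.5 to 5% mitochondrial UMIs and 4 to 642 with 1 library left out. In enteroendocrine-gated cells 30 became 254 with no filter, 15 without cells of a second score, 18 with no margin between scores, 0 at 10000 to 20000 UMIs and 62 to 342 with 1 library left out. For the difference between classes 83 became 507 with no filter and 6 to 2231 with 1 library left out.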
